A study of Mus musculus with 14 samples.

Results

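RNA from mouse hippocampus was compared between Kmt2d+/bGeo mice and their wild-type counterparts, all given vehicle only. The comparison rests on the 6 vehicle libraries of a series of 14, with 3 libraries labelled Kmt2d+/bGeo and 3 labelled Kmt2d+/+. The labels of all 6 give the C57BL6 strain, an age of 30 days, and methylcellulose vehicle by gavage for 2 weeks from 2 weeks of age. The other 8 libraries came from mice given the LSD1 inhibitor TAK-418, 5 wild type and 3 Kmt2d+/bGeo, and they entered the fit only to estimate the spread between libraries. Members were chosen by the genotype and treatment labels, and no expression value was used to choose them. The labels number each library but do not state that each came from a separate animal, so the p-values measure the spread between these libraries. Replicates are called wild type 1 to 3 and mutant 1 to 3, and these numbers only name libraries.

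KMT2D is a large methyltransferase that places methyl groups on lysine 4 of histone H3, mainly at enhancers, within a complex that also holds the H3K27 demethylase KDM6A. Loss of 1 working copy of KMT2D is a known cause of Kabuki syndrome, in which learning is impaired, and the bGeo allele is a mouse model of it that carries a gene trap in Kmt2d. LSD1, encoded by Kdm1a, removes the same kind of mark. The hippocampus serves memory and keeps producing granule neurons in the dentate gyrus after birth.

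The values are abundances of transcripts assembled separately in each library, summed per annotated gene and scaled between libraries; they are on a per-length scale. A gene listed at 0 had no transcript assembled in that library, which does not show that it was silent. Differences are mutant minus wild type on the scale log2(abundance + 0.9), which understates the change of low genes. A member of a list counts as higher or lower by this difference of mean log2 values. The p-values are from limma, a linear model fitted across 16569 genes, with Benjamini-Hochberg adjustment where stated.

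The vehicle libraries held 33819 to 39083 assembled transcripts. Their relative depth, inferred from the smallest step of the abundance values, was 35.1 to 49.8 M reads or fragments. It takes that step as 1 read or fragment, and because the score has no stated unit it serves only to compare libraries. Correlations of log2 abundance across genes were 0.959 to 0.969 between libraries of the same genotype and 0.956 to 0.967 between genotypes, and genes are not independent replicates. Markers of hippocampal neurons were present as labelled, with all 10 mature dentate granule cell genes and all 15 CA field genes on the lists used here detected in all 6 libraries. Some libraries stood apart. Mutant 1 had 40.8% of its summed abundance outside annotated genes, against 4.74% to 7.22% in the other 5. The locus Rn18s-rs5, an 18S ribosomal RNA related sequence (chr17:39846354-39848202, GRCm38.p6), had an abundance of 27930 in mutant 1 and 52.5 to 1032 in the others. Choroid plexus markers summed to 7381 in wild type 3, 6005 in mutant 1 and 1133 in mutant 3, and to 109 to 120 in the remaining 3. In the same fit, Kmt2d+/bGeo TAK-418 replicate 2 also had 32.9% outside annotated genes and 26632 at Rn18s-rs5. By Xist and the Y-linked genes, wild types 1 and 3 and mutant 1 were female and the others male, so sex was not balanced between genotypes.

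**Figure D1:**
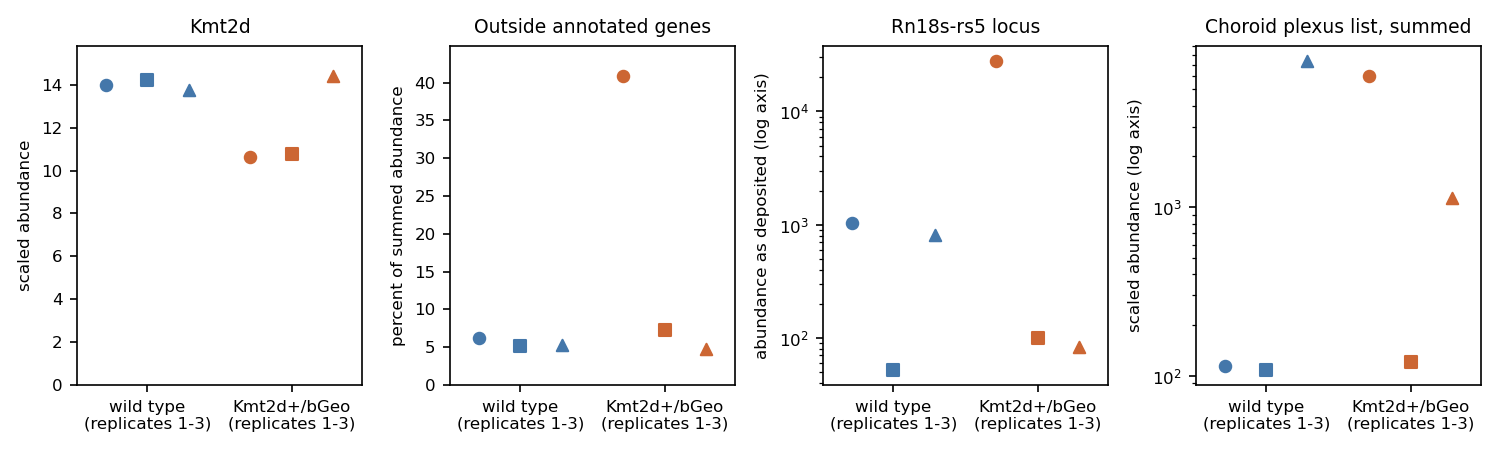
Kmt2d, the share of abundance outside annotated genes, the Rn18s-rs5 locus and the summed choroid plexus list in the 3 wild-type (blue) and 3 Kmt2d+/bGeo (orange) vehicle libraries, with circle, square and triangle for replicates 1, 2 and 3. Mutant 1 stands apart with 40.8% outside annotated genes and 27930 at Rn18s-rs5, and mutants 1 and 2 lie below the wild types for Kmt2d.

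Kmt2d, the trapped gene (chr15:98831669-98871204, GRCm38), did not separate the genotypes by its summed abundance. It was 14, 14.2 and 13.8 in the wild types and 10.6, 10.8 and 14.4 in the mutants. Mutants 1 and 2 lay below every wild type, whereas mutant 3 was above all of them. The mean was 13.99 ± 0.234 in wild types and 11.9 ± 2.14 in mutants (SD, n = 3 each), or 85.2% of the wild-type level, with a log2 difference of -0.23 (95% interval -0.60 to 0.14; limma, adjusted p = 0.999; exact permutation p = 0.4, two-sided). With 3 libraries against 3, such a permutation test cannot go below 0.1. The log2 difference was -0.36 without mutant 3, and -0.41 when only the highest Kmt2d transcript of each library was used. It was -0.16 without mutant 1, -0.17 without mutant 1 and wild type 3, and -0.19 with sex as a term. With abundance multiplied by transcript length before summing it was -0.15. The authors' deposited table gives Kmt2d group FPKM values of 2.54 in wild types and 2.42 in mutants, a log2 fold change of -0.07.

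Assembled Kmt2d transcripts with 55 exons were found in all 6 libraries, mutants included. Mutants 1 and 2 each also had 1 transcript of 54 exons, at abundances of 0.66 and 0.432 as deposited, in which an intron between neighbouring exons was kept. No spliced Kmt2d transcript with fewer than 54 exons was assembled in any of the 6 libraries. The trap cassette itself is not part of the annotation and was not looked for, so the Kmt2d values neither check nor contradict the genotype labels of individual libraries.

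Kmt2c, Kdm6a and Kdm1a had no difference at an unadjusted p under 0.05. Kmt2c, the paralogue with the most similar role, averaged 17.1 ± 1.37 in wild types and 17.4 ± 1.30 in mutants (SD, n = 3), a log2 difference of 0.03. Its sign turned in 5 of the alternatives, with values down to -0.07, and it was 0.39 with the highest transcript only. Kdm6a, the X-linked demethylase of the same complex, averaged 9.84 ± 2.32 and 8.87 ± 3.07 (SD, n = 3); with sex as a term in the fit its log2 difference moved from -0.16 to 0.01, and it was -0.40 without mutant 1, -0.33 without wild type 2, -0.37 without mutant 1 and wild type 3, and -0.02 without mutant 2 or without wild type 1. Kdm1a, the target of TAK-418, was 33.8, 34.4 and 32.2 in wild types and 29.9, 34.9 and 33.3 in mutants, a log2 difference of -0.04 (95% interval -0.15 to 0.08). Without mutant 1 that difference was 0.03, and with the highest transcript only it was -0.18.

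Across the 7 H3K4 methyltransferases of the KMT2 family, 0 had an unadjusted p under 0.05 and the median log2 difference was -0.04. Among 11 subunits of the KMT2 complexes, 1 had one. It was Rbbp5, a core subunit shared by all of these complexes, at 22.4, 22.0 and 23.6 in wild types and 15.1, 15.2 and 22.6 in mutants. Mutants 1 and 2 were low and mutant 3 was in the wild-type range (log2 difference -0.37 ± 0.160 SE, limma, unadjusted p = 0.0396 and adjusted p = 0.873). When abundance was multiplied by transcript length before summing, which weighs long transcripts more, the Rbbp5 difference was 0.18. Ash2l, another core subunit, varied within both genotypes, at 26.8, 16.6 and 15.8 against 9.42, 10.7 and 25.03. Men1, the menin gene, was listed at 26.2 in wild type 1 and at 0 in the other 5. The 13 H3K4 demethylases and LSD1 partners, among them Kdm5b, Rcor1 and Hdac2, had log2 differences between -0.05 and 0.16 and a median of 0.00.

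Over all genes, no difference between the genotypes passed the adjusted threshold. Of 16569 genes tested, 0 (0.0%) had an adjusted p under 0.05 in limma, the smallest being 0.108. An unadjusted p under 0.05 was reached by 903 genes (5.45%), 433 higher in mutants (2.61%) and 470 lower (2.84%). With the abundances left unscaled, this split was 181 higher against 660 lower. The 3 mutant libraries lay entirely above the 3 wild types for 729 genes (4.4%) and entirely below for 746 (4.5%), together 8.9%. The log2 difference was above 0 for 49.9% and below 0 for 49.4%, and 294 genes (1.77%) differed by 1 or more in either direction. The median log2 difference was 0.00, with an interquartile range of -0.08 to 0.09, and the median standard error was 0.137. Known changes were also simulated, in 200 of 16569 genes. The fit called 69% of those set to a log2 difference of 1 and 93% of those set to 2. It also made 7 wrong calls. Whether these shares hold for the vehicle libraries themselves was not tested.

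The 30 genes plotted by library have a value in all 6 libraries and groups that do not overlap, and have the smallest p-values in each direction. None passed the adjusted threshold, so their values describe these libraries. Their adjusted p-values ran from 0.108 to 0.627.

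Aptx, which encodes aprataxin, an enzyme of DNA single-strand break repair, had the smallest p among them. It was 8.81, 6.73 and 9.39 in wild types and 14.1, 15.4 and 13.5 in mutants (log2 difference 0.73 ± 0.103 SE, limma, adjusted p = 0.108). Every mutant was above every wild type. That direction depended on how transcripts were summed: weighed by transcript length, the difference was -0.58, and the authors' deposited table gives group FPKM values of 11.9 in wild types and 11.6 in mutants.

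Prdm8, a repressor of the PR domain family that acts in developing neurons, was 42.8, 38.4 and 41.4 in wild types and 48.0, 49.3 and 50.7 in mutants. The 3 mutants were tightly grouped above the wild types (log2 difference 0.27 ± 0.0596 SE; limma, unadjusted p = 0.000802). In the authors' deposited table Prdm8 stood at FPKM 29.1 in wild types and 34.7 in mutants. Npnt, which encodes the matrix protein nephronectin, was 13.8, 11.4 and 12.1 against 17.2, 15.1 and 15.3, and the authors' deposited table gives it 8.88 and 11.4 FPKM. Npy2r, the Y2 receptor for neuropeptide Y, was 29.6, 28.7 and 31.0 against 33.3, 36.4 and 39.9. Eps8, an actin capping protein found at synapses, was 15.1, 15.8 and 15.8 against 17.3, 18.5 and 17.1. For these 4 genes the log2 difference was between 0.18 and 0.34 when abundance was weighed by length.

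Other genes on the higher side were low or depended more on the assembly. Cntnap5c, of the contactin-associated protein family, was 2.95, 3.34 and 2.74 against 5.63, 6.24 and 5.03. Traf7, an E3 ubiquitin ligase, was 9.39, 10.8 and 11.7 against 20.5, 18.4 and 19.7, and Smyd2, a lysine methyltransferase, 27.4, 26.4 and 38.2 against 42.3, 55.2 and 41.4. Their log2 differences of 0.74, 0.83 and 0.59 were 0.28, 0.21 and 0.07 when weighed by length. Apobec1, Eno4, Anxa8, Rtp4 and the unnamed gene Gm43154 were all under 5 in every library. Skiv2l, a helicase of the cytoplasmic RNA decay machinery, differed by 0.20 on the log2 scale.

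On the lower side, Tyro3, a receptor tyrosine kinase of the TAM family, was 34.7, 37.5 and 33.1 in wild types and 25, 26.8 and 26.8 in mutants (log2 difference -0.41 ± 0.0786 SE; limma, unadjusted p = 0.000245, adjusted p = 0.579). All 3 mutants were below all 3 wild types, and the difference was -0.42 when weighed by length. Rgs4, a regulator that shortens G protein signalling, was 82.5, 94.2 and 85.7 against 71.3, 75.6 and 75.6. In the authors' deposited table Rgs4 stood at FPKM 59.2 and 50.5. Etv5, an ETS transcription factor induced by growth factor signalling, was 23.2, 27.9 and 27.2 against 20.5, 21.3 and 21.2, and the authors' deposited table gives 18.2 and 14.4 FPKM.

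Ngef, a guanine nucleotide exchange factor that acts downstream of ephrin receptors, was 39.3, 42.4 and 39.5 against 33.1, 35.8 and 32.7. Gpr3, an orphan receptor that raises cAMP, was 3.69, 4.13 and 3.81 against 2.46, 2.61 and 3.20. Fgf1, a fibroblast growth factor, was 19.1, 17.9 and 18.5 against 15.1, 14.5 and 15.5. For these 3 genes the groups did not overlap, and the log2 differences were -0.25, -0.39 and -0.28. Dab1, the adaptor that relays Reelin signals, was 33.0, 35.5 and 35.0 against 31.0, 28.1 and 25.5, but its highest transcript alone gave a difference of 0.09. Maml3, a Notch coactivator, and Tbce, a tubulin folding cofactor, differed by -0.86 and -0.69, and by -0.03 and 0.04 when weighed by length.

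Plcz1, a phospholipase known from sperm, was low in all libraries, at 2.05, 1.49 and 1.91 in wild types and 0.390, 0.760 and 0.683 in mutants. Its locus was also called lower in the authors' deposited table. Low genes on this side also included Ggta1, at 1.54, 2.36 and 2.29 against 0.829, 1.05 and 1.03, Gm19705 and Tmem132e, all under 5 in every library. Mydgf, a secreted growth factor, was 29.4, 32.6 and 31.7 against 26.3, 26.7 and 28.2. The olfactory receptor gene Olfr287 was 2.77, 2.63 and 3.72 against 0.990, 1.48 and 1.40.

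The authors' deposited table has 1 tested locus for 20 of the 30 genes, and 19 of these had the same direction. It comes from the same libraries in which the 30 genes were picked, so the shared direction is not an independent result. Of the 19, 5 had an unadjusted p under 0.05 in the authors' deposited table: Prdm8, Npnt, Plcz1, Rgs4 and Etv5. Over all 32966 loci tested there, 1423 had one. Others were close to 0 in the authors' deposited table, with log2 fold changes of 0.03 for Smyd2, 0.09 for Eps8, 0.13 for Cntnap5c, -0.08 for Mydgf and -0.00 for Ggta1.

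The TAK-418 libraries shared the scaling, the filter and the estimate of spread behind the p-values that picked these genes, but not the vehicle difference itself. In them the genotype difference had the same sign for 18 of the 30 genes, 9 from each side, or 60%, against 51.8% of all genes tested. The treated groups did not overlap in the same direction for 1 of the 30 and in the opposite direction for 1. Over all 16569 genes tested these counts were 397 and 358.

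**Figure D2:**
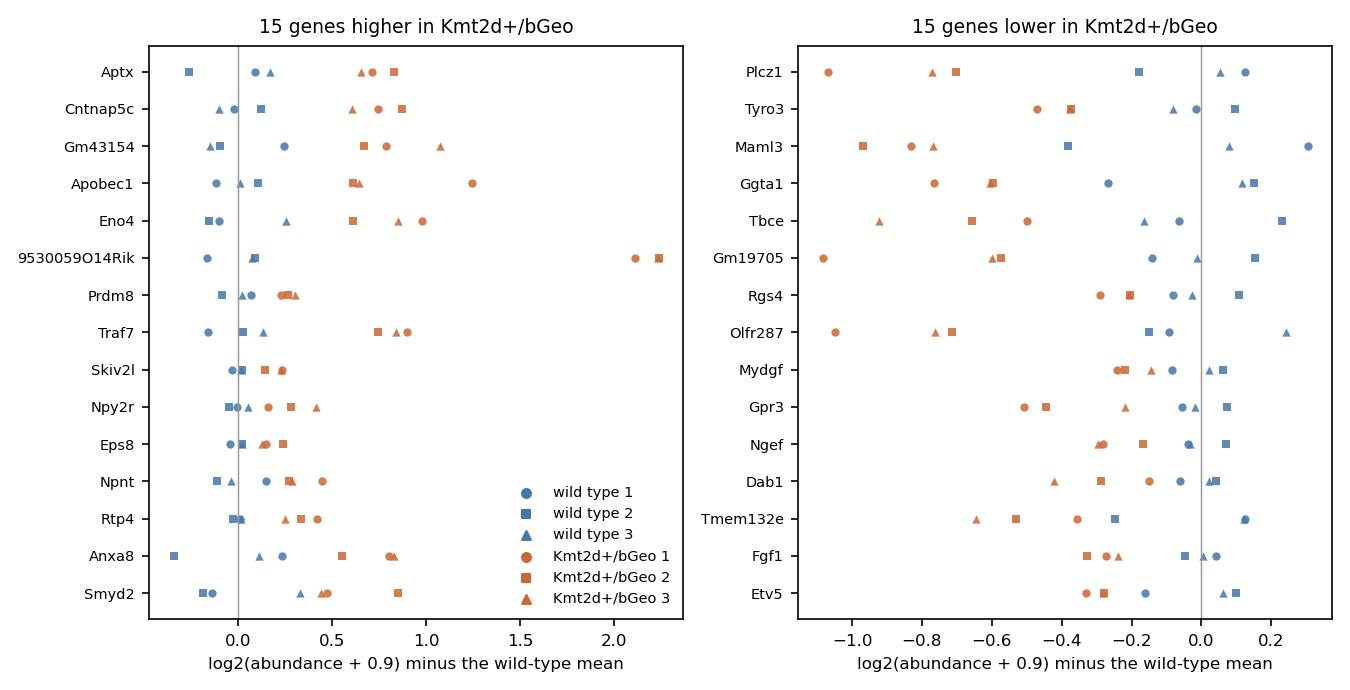
Abundance of the 15 higher and 15 lower genes in each vehicle library, as log2(abundance + 0.9) minus the wild-type mean of the gene; wild types are blue, Kmt2d+/bGeo orange, and symbols mark replicates 1 to 3. The groups do not overlap for any of the 30, which is how the genes were picked, and most differences are under 1 on the log2 scale, with 9530059O14Rik at 2.19 the exception.

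A fit on the 6 vehicle libraries alone called 12 of 15243 genes, 9 higher and 3 lower. Several of them took values from both ranges in the 8 TAK-418 libraries. Rbm3, a cold-induced RNA-binding protein, was 24.4, 25.1 and 22.8 in wild types and 91.3, 101 and 82.7 in mutants. In the TAK-418 libraries Rbm3 went from 23.3 to 103, and weighed by transcript length its vehicle difference turned from 1.89 to -0.47. Alg2, a mannosyltransferase of protein glycosylation, was 43.4, 43.9 and 42.3 against 71.4, 81.4 and 79.3, with 43.8 to 83.6 in the treated libraries; weighed by length its difference was -0.20.

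Neighbouring genes went in opposite directions in some of these cases. Dohh, an enzyme that modifies the translation factor eIF5A, was 15.9, 22.6 and 29.5 in wild types and was listed at 0 in all mutants. The overlapping gene Gm48551 was 4.07, 3.43 and 3.04 in wild types and 14.4, 15.5 and 14.4 in mutants. Gm47135 and its neighbour 9530059O14Rik also went in opposite directions, and together they were 13.4, 13.2 and 13.0 in wild types and 7.11, 7.85 and 7.84 in mutants. Stub1, a ubiquitin ligase that works with chaperones, was listed at 0 in all wild types and was 4.41 to 7.08 in mutants. Summed with the 4 other measured genes within 5000 bases, the Stub1 region did not separate the groups. Chmp1b was 4.24 to 7.85 in wild types and at most 0.372 in mutants, and its region with Gnal did not separate them either. The other regions with a measured neighbour stayed apart. The Dohh region summed to 21.3, 27.9 and 34.1 in wild types and 17.3, 17.4 and 16.1 in mutants, and the log2 differences of the Rbm3, Alg2 and Xcr1 regions were 1.87, 0.56 and 0.45. Xcr1, AY512931, Mesp2 and Zfp125 were at or near 0 in all wild types and above 2 in all mutants.

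Tlnrd1 was called in 4 alternative fits and is named here after its values were seen. It was listed at 0.436, 0.496 and 0.548 in the wild types and at 0 in all mutants. These values are under the 0.9 added before taking logs, so the size of the difference is not interpretable. In all, 32 genes were listed in all mutants and no wild type, and 26 the other way round, most of them low. With at least 0.9 in all 3 libraries the counts were 6 and 5. By mean abundance the highest of the 32 and of the 26 were AY512931, Stub1, Rnu1a1, Xcr1 and Mesp2 in mutants and Klhl41, Dohh, Gm47135, Oaz3 and Gm3715 in wild types. Klhl41 and Oaz3 were uneven among the wild types, at 0.540, 44.1 and 56.2 and at 0.695, 0.195 and 6.73. Each of the 10 was listed in 3 or more of the 8 TAK-418 libraries.

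Immediate early genes, which neurons switch on within minutes of activity, were mostly lower in mutants. Of 19 tested, 17 had a lower mean in mutants, against 49.4% of all genes, and 5 had an unadjusted p under 0.05, all lower (background 2.84%). None passed the adjusted threshold in limma; the smallest adjusted p was 0.693. Groups were apart, lower in mutants, for 3 of the 19 (4.5% of all genes). The list's median log2 difference was -0.31, against 0.00 over all genes. The 3 of the 5 genes with a RefSeq promoter entry (GRCm38.p6) are shown because they were lower together: the 250 bases before each start site, with capitals for each match to TGACG or its reverse complement CGTCA, the core that CREB and related factors bind in many activity-induced genes.
Fos (chr12:85473640-85473889, + strand): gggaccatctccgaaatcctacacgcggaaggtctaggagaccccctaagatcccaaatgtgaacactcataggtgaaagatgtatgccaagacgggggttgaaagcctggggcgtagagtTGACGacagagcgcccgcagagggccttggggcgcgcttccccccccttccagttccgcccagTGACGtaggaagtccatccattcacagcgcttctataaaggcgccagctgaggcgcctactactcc
Nr4a1 (chr15:101266596-101266845, + strand): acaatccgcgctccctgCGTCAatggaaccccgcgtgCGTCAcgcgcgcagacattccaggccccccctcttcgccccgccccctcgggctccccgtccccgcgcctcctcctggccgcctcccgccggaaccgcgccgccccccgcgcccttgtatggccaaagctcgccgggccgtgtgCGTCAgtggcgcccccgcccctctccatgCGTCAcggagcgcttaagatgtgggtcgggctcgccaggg
Dusp1 (chr17:26508473-26508722, - strand): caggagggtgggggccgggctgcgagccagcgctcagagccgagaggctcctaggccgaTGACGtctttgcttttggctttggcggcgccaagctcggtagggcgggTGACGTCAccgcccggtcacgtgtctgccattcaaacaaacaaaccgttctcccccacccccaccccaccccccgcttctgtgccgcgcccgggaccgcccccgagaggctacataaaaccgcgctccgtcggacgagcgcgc
The Fos sequence holds 2 matches, the Nr4a1 sequence 4 and the Dusp1 sequence 3. The full palindrome TGACGTCA, which contains the core on both strands, is present in Dusp1 only. Of the 14 immediate early genes with a single entry, 10 had the core and 2 the palindrome, while 17.8% and 1.55% of all 32851 entries did over the same 250 bases. The CArG box, bound by serum response factor, was found in 0 of those 14 genes and in 1.47% of all entries; over all 26 entries of the list it was in 4, each of them an Egr2 entry. Only exact matches within these 250 bases were counted, so sites further upstream or with a mismatch would be missed. A match describes the letters and is no evidence of binding. Arc and Egr1 are named only.

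Fos, a subunit of the AP-1 transcription factor and the common marker of recent neuronal activity, was 5.23, 11.5 and 9.22 in wild types and 3.48, 3.30 and 6.70 in mutants. Mutants 1 and 2 lay under every wild type, and mutant 3 was above wild type 1. The log2 difference was -0.82 ± 0.256 SE (limma, unadjusted p = 0.00769, adjusted p = 0.693). In the authors' deposited table Fos was called lower, with FPKM 7.05 and 3.98 and a q-value of 0.027.

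Nr4a1, a nuclear receptor induced by activity, was 25, 32.2 and 33.4 against 23.5, 20.1 and 24.1, and the groups did not overlap. Arc, which encodes a protein that regulates AMPA receptors at synapses, was 36.5, 53.0 and 52.1 against 33.5, 30.2 and 41.0. Egr1, a zinc finger transcription factor, was 42.9, 63.5 and 63.9 against 38.8, 34.7 and 51.2. In Arc and Egr1 mutant 3 was above wild type 1, so the groups overlapped. Dusp1, a phosphatase that shuts off MAP kinases, was 8.92, 8.68 and 8.18 against 6.36, 6.36 and 6.51, with both groups narrow and apart. The log2 differences of Nr4a1, Arc, Egr1 and Dusp1 were -0.40, -0.42, -0.44 and -0.38 (limma, adjusted p = 0.693, 0.725, 0.808 and 0.867).

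The remaining members varied. Nr4a2, Npas4, Egr4, Fosb and Nr4a3 had log2 differences from -0.34 to -0.23, and Btg2 one of -0.17 with groups apart. Fosl2, an AP-1 subunit, was 11.2, 12.8 and 10.5 against 10.9, 8.31 and 3.86. Egr3, Dusp6 and Bdnf, the neurotrophin gene, lay between -0.08 and -0.01. Jun, Junb and Ier5 were at or near 0 in some libraries and above 20 in others, and Egr2 was under 2 in all 6. Junb was listed at 0, 34.3 and 27.3 in wild types, and Jun at 1.59, 0 and 49.0, so their differences are not interpretable.

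The second measure, taken from the same libraries and therefore not independent, leaned the same way. The authors' deposited table has 1 tested locus for each of 16 list members, and 15 of these were lower in mutants, with a median log2 fold change of -0.29, against -0.00 over tested loci with 1 symbol. Of these 15, 7 had an unadjusted p under 0.05: Fos, Arc, Egr1, Nr4a1, Fosb, Egr4 and Nr4a2. Over the 14672 tested loci with 1 symbol and a finite fold change, 7447 were lower, 135 of them with such a p. Arc stood at FPKM 34.1 and 24.9 with a q-value of 0.0549 in the authors' deposited table.

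The libraries contributed unequally to this list. Relative to the mean of the 6 libraries, the median member was at -0.05, 0.30 and 0.26 in wild types 1 to 3 and at -0.21, -0.36 and 0.03 in mutants 1 to 3. The count of 5 became 2 without mutant 2, 2 without wild type 2, 3 without wild type 3, 8 without mutant 3, and 1 without mutant 1 and wild type 3 together; it was 2 in the fit on the 6 vehicle libraries alone. The list's median stayed below 0 in all 20 alternative fits, from -0.44 to -0.16, and was -0.32 with sex as a term. In the TAK-418 libraries the median genotype difference of the same list was 0.08, with 6 of 19 lower; the difference from the vehicle contrast was not tested.

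**Figure D3:**
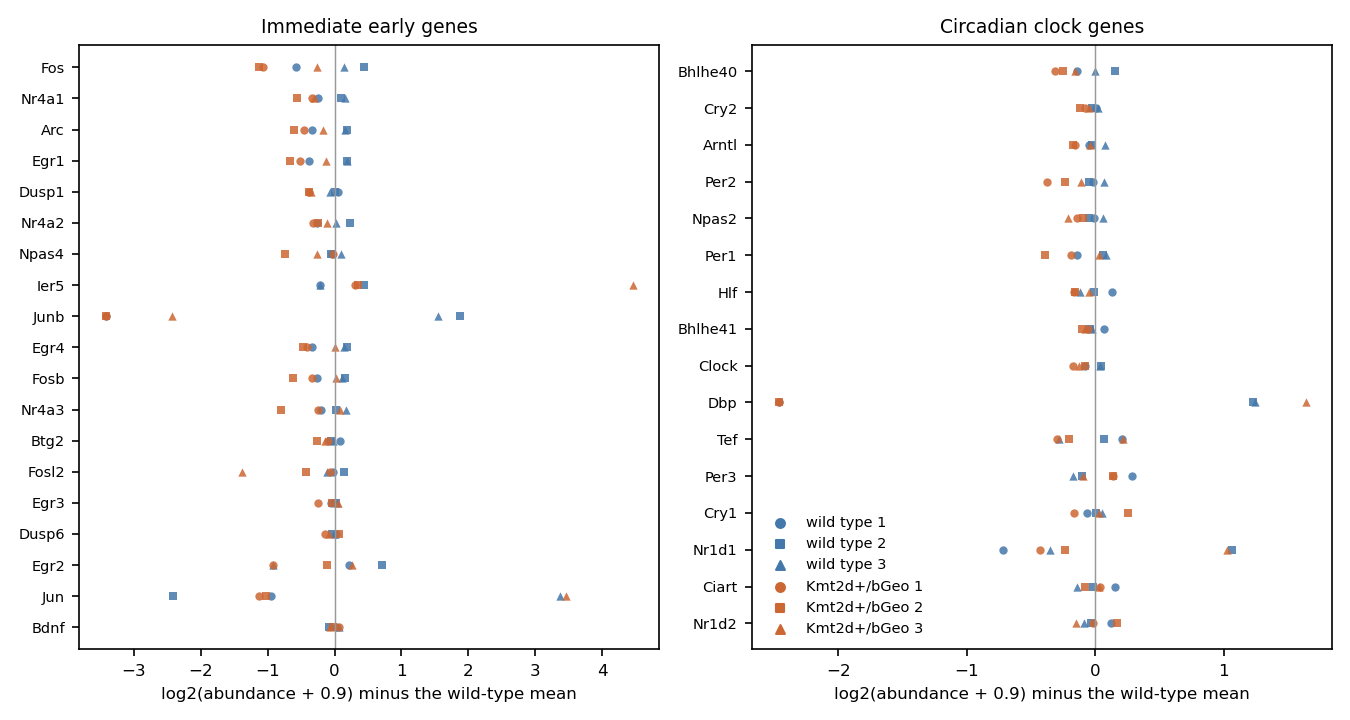
Immediate early (left) and circadian clock genes (right) in each vehicle library, as log2(abundance + 0.9) minus the wild-type mean, ordered by p; colours and symbols as in the plot of the 30 genes. Fos, Nr4a1, Arc, Egr1 and Dusp1 at the top left lie mostly left of the line in mutants, while Jun, Junb, Ier5 and Dbp jump between libraries of the same genotype.

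Differences among the circadian clock genes were mostly small. Of 16 tested, 12 had a lower mean in mutants (49.4% of all genes) and 2 had an unadjusted p under 0.05 (2.84% of all genes). The median log2 difference was -0.11. The count of 2 was 0 without mutant 1, 0 without mutant 1 and wild type 3, 1 with sex as a term and 3 without wild type 1. Groups were apart, lower in mutants, for 5 of the 16 (background 4.5%): Bhlhe40, Cry2, Npas2, Bhlhe41 and Per2. Bhlhe40, a repressor that also responds to activity, was 38.7, 47.7 and 42.7 in wild types and 34.4, 35.9 and 38.4 in mutants. Cry2, a core repressor of the clock, was 42.9, 41.8 and 43.2 against 40.4, 39.3 and 41.1. Per2 was 13.4, 13.1 and 14.3 against 10.3, 11.4 and 12.5.

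In bulk tissue, fewer cells of a type and less RNA per cell cannot be told apart, and this holds for every cell type list that follows. Microglial genes were lower in mutants for 11 of 14 (49.4% of all genes), with 3 at an unadjusted p under 0.05 (2.84% of all genes) and a median log2 difference of -0.12. Trem2, a lipid receptor of microglia, was 10.2, 11.2 and 8.86 in wild types and 7.13, 8.97 and 6.82 in mutants. Ctss, a lysosomal protease, was 45.4, 46.4 and 37.0 against 34.5, 36.3 and 31.2, and C1qa, a complement subunit, 38.4, 40.1 and 34.2 against 33.2, 33.1 and 31.9. Ctss and C1qa did not overlap between groups; for Trem2 mutant 2 was just above wild type 3. Without wild type 3 the count of 3 became 5.

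All 14 myelin and oligodendrocyte genes had a lower mean in mutants, with a median of -0.14, but 0 had an unadjusted p under 0.05. Without wild type 1 the median was -0.31 and 6 had such a p, and the median closest to 0 over the alternatives was -0.025. Their summed abundance was 4026, 6217 and 5338 in wild types and 4439, 4627 and 4792 in mutants. Wild type 1 was below all mutants, so the groups overlapped.

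Meningeal and fibroblast genes were higher in mutants for 8 of 10 (49.9% of all genes), with 3 at an unadjusted p under 0.05 (2.61% of all genes) and a median of 0.30. Fmod, a collagen-binding proteoglycan, was 1.59, 2.31 and 3.25 against 4.26, 4.37 and 3.61. Col1a2 was 3.71, 4.49 and 6.45 against 6.68, 6.19 and 6.60, and Col3a1 1.74, 2.78 and 2.76 against 3.31, 3.60 and 3.06. The list's sum was 87.0, 85.9 and 179 in wild types and 193, 104 and 107 in mutants, highest in the same libraries that held most choroid plexus RNA. The count of 3 became 6 without wild type 3, 5 without wild type 3 and mutant 1 together, 1 without mutant 1, 1 without wild type 1 and 1 in unscaled values. The part of choroid plexus RNA in these counts was not tested. All 18 choroid plexus genes had a higher mean log2 value in mutants, with a median of 0.56 and 0 at an unadjusted p under 0.05, whereas their summed abundance averaged 2534 in wild types and 2419 in mutants. Ttr, their most abundant member, was 35.4, 14.2 and 6369 in wild types and 4906, 36.2 and 884 in mutants. Leaving out a library moved the list's median from 0.56 to -0.34 without mutant 1, -0.00 without wild type 2, 0.05 without wild type 1, 1.34 without mutant 2 and 1.59 without wild type 3.

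Among neurons, 4 neuropeptide precursors out of 18 had an unadjusted p under 0.05 (5.45% of all genes), 2 higher and 2 lower, and without mutant 1 the lower count was 0. Penk, the enkephalin precursor, was 17.95, 17.2 and 17.6 in wild types and 21.7, 23.2 and 22.1 in mutants. Npy, the neuropeptide Y precursor, was 53.9, 76.8 and 69.7 against 93.0, 86.7 and 79.3. Groups were apart for both, with log2 differences of 0.33 and 0.38. The authors' deposited table gives log2 fold changes of 0.28 for Penk and 0.13 for Npy. Grp, the gastrin-releasing peptide precursor, was 25.1, 24.4 and 25.4 against 18.1, 19.8 and 21, also apart. Trh was 6.81, 0 and 1.15 in wild types and was listed at 0 in all mutants.

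Genes of the CA fields and of mature granule cells had medians of 0.02 and 0.10. Groups did not overlap for 4 of 15 CA genes higher and 1 lower, and for 3 of 10 granule cell genes higher and 0 lower. Over all genes these shares were 4.4% higher and 4.5% lower. Among members with an unadjusted p under 0.05, Bok, Homer3 and Cacng5 of the CA list and Lct of the granule cell list had groups apart. All were higher in mutants, with log2 differences of 0.22, 0.35, 0.42 and 0.30. Dsp, of the granule cell list, was 13.3, 10.2 and 10.1 against 14.5, 14.3 and 11.6, with overlap. Homer3, a scaffold that links metabotropic glutamate receptors to calcium stores, was 23.8, 21.1 and 20.3 against 30.6, 24.6 and 29.1. Of the 12 newborn granule neuron genes, Stmn1, which destabilises microtubules, was 258, 281 and 239 against 209, 228 and 203. Eomes and Igfbpl1 had log2 differences of 0.48 and 0.37 with overlapping groups, and the list's median was 0.03. Weighed by transcript length Igfbpl1 was at -0.06, and the authors' deposited table gives Eomes a log2 fold change of 0.04. The 16 genes of dividing cells, including Mki67 and Top2a, had 0 members with an unadjusted p under 0.05.

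For the receptor, synapse and other lists of this paragraph, the share of all genes with an unadjusted p under 0.05 was 5.45%. Grik5, a kainate receptor subunit, was 85.5, 82.8 and 84.9 against 93.9, 99.7 and 96.9, and Cacng3, an AMPA receptor auxiliary subunit, 33.2, 34.9 and 35.8 against 29.1, 32.4 and 28.7. These 2 of 20 glutamate receptor genes and Gabrb2 of 12 GABA-A subunits had an unadjusted p under 0.05, and so did 0 of 18 genes of vesicle release. Larger differences came with uneven libraries, as for Grin2b, an NMDA receptor subunit, at 32.3, 30.3 and 3.97 against 32.2, 6.12 and 109, and Snap25, a vesicle fusion protein, at 992, 1033 and 1025 against 968, 995 and 415. Fkbp5, a chaperone induced by glucocorticoids, was the only one of 15 glucocorticoid response genes, at 31.6, 24.9 and 22.4 against 33.5, 35.6 and 29.9. Atf4, a stress-response factor, was 92.4, 95.3 and 88.5 against 81.0, 84.1 and 80.2. The imprinted genes Dlk1 and Peg3 had log2 differences of -0.40 and -0.13, and 0 of 20 cholesterol synthesis genes had an unadjusted p under 0.05. Of the 14 interferon response genes tested, Rtp4 and Oas1a were higher and Ifit3 lower at an unadjusted p under 0.05. Ifit3 was 2.03, 1.90 and 3.55 against 2.80, 0 and 0. Markers of the neighbouring thalamus and habenula had a median of -0.04, with Slc17a6 at 2.67, 4.09 and 2.70 against 1.61, 2.50 and 2.26. Lamp5, of GABAergic interneurons, was 27.3, 25.8 and 20.5 against 20.3, 20.3 and 18.5, the only one of 17 on its list. Over all 29 lists, 39 of 393 tested genes (9.92%, against 5.45% of all genes) had an unadjusted p under 0.05. The count was 23 to 52 when a library was left out, and 0 had an adjusted p under 0.05 in limma. Because the lists were chosen with earlier results of these data known, this share is not an independent result about these genes.

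**Figure D4:**
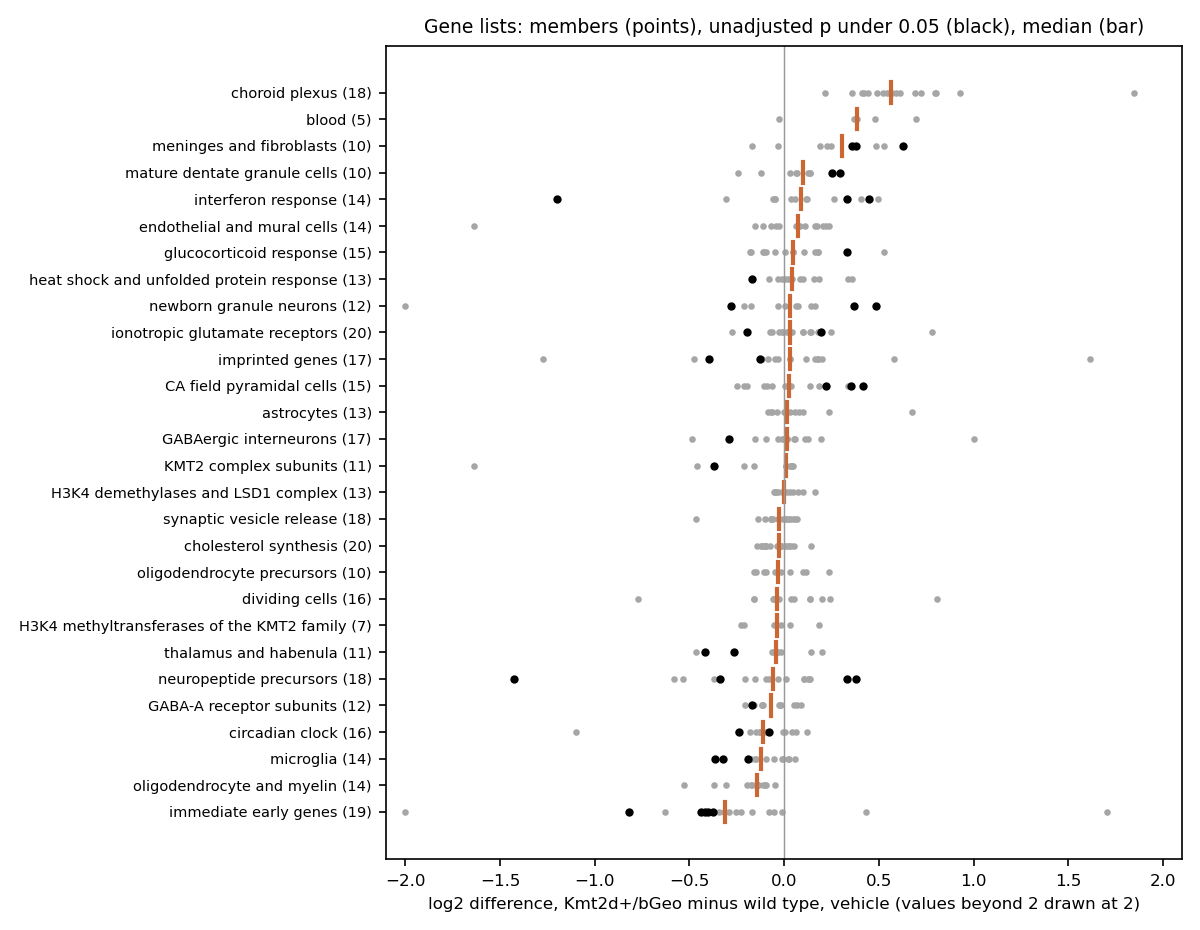
Log2 differences of the members of 28 gene lists, ordered by list median (orange bar), with the number of genes tested in parentheses; black points have an unadjusted p under 0.05 in limma. Immediate early genes lie lowest with a median of -0.31 and choroid plexus genes highest with 0.56, and most other medians are close to 0.

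The authors' deposited table tested 32966 of 81411 loci between the vehicle groups and called 74 at a q-value under 0.05 (0.224%), 44 higher in mutants (0.133%) and 30 lower (0.091%). It pools each group and carries no spread between libraries. Of the 74, 32 have a gene symbol. Among the loci higher in the authors' deposited table, 39 of 44 had a value in the library files, and mutant 1 was the highest library in 23 of them. The 3 mutants were above the 3 wild types in 4: Col11a1, Eln, Mesp2 and Rnu1a1. Over all genes tested, the mutants were above the wild types for 4.4%. The loci were called from these same libraries, so the library values are no independent check. Using library means, 33 of the 39 were higher in mutants, and 23 without mutant 1.

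Small structural RNAs made up part of the higher calls. Rn7sk, the 7SK RNA that restrains transcription elongation, was 1.07, 0.793 and 0.547 in wild types and 24.6, 0.657 and 0.570 in mutants. Only mutant 1 was raised. Rnu2-10, a U2 spliceosomal RNA, was listed at 0 in wild types and at 15.8, 0 and 1.06 in mutants. The Peak1 locus was 46.8, 41.7 and 47.2 against 7083, 44.7 and 55.8, and the Lars2 locus 189, 5.55 and 198 against 4456, 257 and 187. The Jarid2 locus was 3398, 2687 and 3034 against 23870, 4574 and 47.7. In each of these 5 loci mutant 1, the library with the high Rn18s-rs5 value, was the highest of the 6.

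Other higher calls held across mutants. Eln, which encodes elastin, was 5.91, 4.84 and 5.40 in wild types and 8.26, 9.59 and 6.82 in mutants. Col11a1, a fibrillar collagen chain, was 4.53, 3.97 and 5.57 against 6.64, 6.49 and 7.42. Both showed every mutant above every wild type. In the authors' deposited table their FPKM values were 3.76 and 5.96 for Eln and 3.54 and 5.39 for Col11a1.

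Among the 12 lower calls with a symbol, 5 had groups apart in the libraries: Nxph3, Nov, Tshz2, Plcz1 and the Olfr287 locus. Over all genes tested, the mutants were below the wild types for 4.5%. These loci too were called from the same libraries. Nxph3, a neurexin-binding protein, was 4.65, 8.24 and 5.64 in wild types and 2.59, 3.51 and 2.83 in mutants. Nov, a secreted matrix protein of the CCN family, was 65.3, 84.4 and 60.7 against 51.1, 50.9 and 49.3. Tshz2, a zinc finger transcription factor of subsets of neurons, was 4.74, 7.58 and 5.95 against 4.37, 4.24 and 3.77. Rxfp1, the relaxin receptor, was 1.503, 2.16 and 3.20 against 1.11, 1.88 and 0.636, with overlap. Crot, Dlx6os1 and the Mir670 locus were lower in the authors' deposited table but had a higher mean in mutants in the library files, at 19.1 against 17.8, 11.97 against 9.999 and 6.04 against 5.87.

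**Figure D5:**
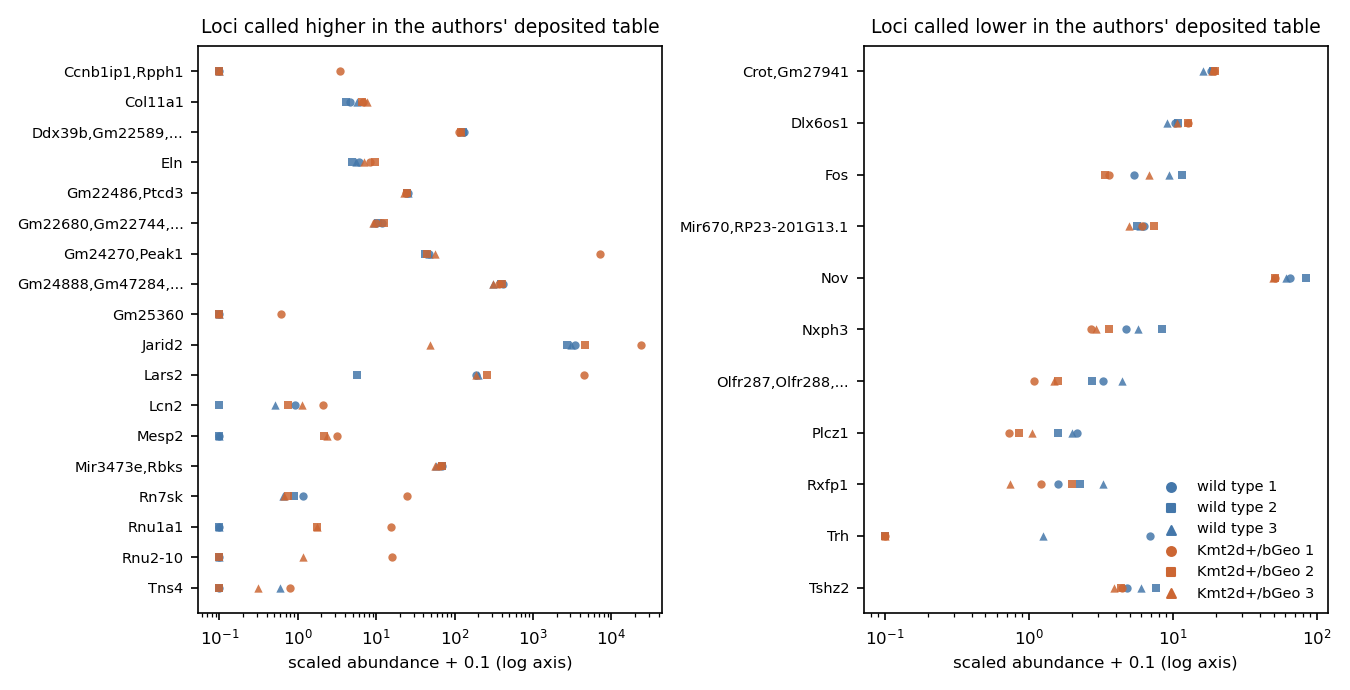
Library values of the loci with a symbol that the authors' deposited table calls higher (left, 18 with a value) or lower (right, 11 shown) in mutants, as scaled abundance + 0.1 on a log axis; blue is wild type, orange Kmt2d+/bGeo, and symbols mark replicates 1 to 3. Mutant 1 (orange circle) is far to the right for Peak1, Jarid2, Lars2, Rn7sk and Rnu2-10, while Nov, Nxph3 and Tshz2 have all mutants left of all wild types.

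The 42 called loci without a symbol were short: 22 of the 24 higher and 17 of the 18 lower were under 1000 bases. The wild-type value was 0 for 14 of those 24 in the authors' deposited table, and the mutant value 0 for 17 of those 18. None of the 42 had groups apart in the library files, against 8.9% of all genes tested.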

How the data were processed

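Hippocampal RNA was measured by RNA-seq in 14 libraries, of which the 6 vehicle libraries are compared here. Per the submitters' processing notes, reads were handled with FastQC and TopHat2 2.1.0 on mm10; alignment options are not given in the sources used here. The labels name 2 NEBNext kits without saying which library used which. Per the file headers, the authors assembled transcripts with CLASS 2.1.7; the deposited abundance score has no stated unit and behaves like FPKM. The authors' deposited table gives group FPKM values, a log2 fold change, and for each locus its p-value with the adjusted q-value. Groups in its columns were checked against the libraries over 9723 genes. Against its first group column, the SD on the log2 scale was 0.5884 for vehicle wild types and 0.5923 for vehicle mutants. Against the second it was 0.6043 and 0.5845. These margins are small, and the column order itself was taken from the order of the groups in the table's name.

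Transcripts were assigned to GENCODE M21 genes (GRCm38) by most shared introns, and single-exon ones by at least 50% overlap with exons, on either strand where they carried none. Overlapping and antisense genes and near-identical copies therefore remain uncertain. Abundances were summed per gene and scaled by the median of ratios over 13273 genes with a value in all 14 libraries. The 16569 genes listed in 3 or more libraries entered the fit as log2(value + 0.9) with limma 3.58.1 in R 4.3.3, 4 group means, eBayes with trend, and a threshold of 0.05. The fit was tested on simulated data. Named genes were always Kmt2d, Kmt2c, Kdm6a and Kdm1a; the 15 per direction with the smallest p among genes with a symbol, a value in all 6 libraries and groups apart; from each list the member with the smallest p in each direction, members with an unadjusted p under 0.05, the 2 most abundant cell markers and all immediate early genes; loci called by the authors; calls of the fit on 6 libraries; and the 5 highest genes listed in 1 genotype only. Members and lists were chosen with earlier results of these data known. The comparison with TAK-418 libraries, the summing of neighbouring genes and the values of called loci without mutant 1 were added after seeing the data. Of the loci called by the authors, 1 is not reported here.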

Additional observations from a re-analysis of the deposited data

How the results depend on the processing

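Against 0 calls as reported, 12 genes passed the adjusted threshold in the fit on the 6 vehicle libraries alone, 5 without both libraries high in choroid plexus markers, wild type 3 and mutant 1 (Ifit3, Lztr1, Pigx, Shkbp1 and Thap7), 2 with abundance times length (Cep97 and Tlnrd1), 1 each with the highest transcript, without trend and without a filter (Tlnrd1 each time), 1 with a pseudocount of 0.09 (B3gnt3), and 1 to 5 when leaving out a library. Adding sex, robust moderation, upper quartile or no scaling, multi-exon transcripts only, a value in all 14 libraries and a pseudocount of 9 gave 0. Genes higher at an unadjusted p under 0.05 numbered 181 without scaling. Of 601 values of the 30 named genes, 597 kept their direction and 570 an unadjusted p under 0.05; the exceptions in direction were Aptx (-0.58) and Tbce (0.039) with abundance times length, Dab1 (0.093) with the highest transcript, and 9530059O14Rik below. Abundance times length also reversed Rbbp5 (0.18), Igfbpl1 (-0.057), Alg2 (-0.20) and Rbm3 (-0.47). Summing genes within 5000 bases reversed 9530059O14Rik (-0.73) and Gm48551 (-0.36). Kdm6a reversed with sex as a term (0.011), and Kmt2c without scaling (-0.058) and without both choroid-high libraries (-0.065); leaving out a library put Kmt2c between -0.035 and 0.088, below 0 without mutant 1, mutant 3 or wild type 3. Kdm1a ranged from -0.082 to 0.027 when leaving out a library. The causes were not tested.

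List genes with an unadjusted p under 0.05 numbered 23 to 52 when leaving out a library. For immediate early genes lower the count was 2 to 8 when leaving out a library, 2 with 6 libraries alone and 1 without both choroid-high libraries. For microglial genes lower it was 2 to 5 when leaving out a library and 5 without both. For meningeal genes higher it was 1 to 6 when leaving out a library, 1 with 6 libraries alone, 1 without scaling and 5 without both. The clock median was -0.20 without scaling. The authors' calls numbered 0 at a q-value of 0.01 and 1423 at an unadjusted p under 0.05. Genes listed in 1 genotype only numbered 6 and 5 with at least 0.9 in all 3 libraries. With 3 libraries a group and a median standard error of 0.137, small differences were not detectable. No paired analysis was possible because the replicate numbers are in accession order and the labels pair no libraries.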

Other observations

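Some short loci without a gene symbol that the authors' deposited table calls higher were present in every library and far higher in mutant 1. The locus chr1:102628125-102628364 (mm10) was 453, 587 and 756 in wild types and 15170, 927 and 579 in mutants. The locus chr3:5860332-5860777 was 1074, 893 and 987 against 22520, 1463 and 993. In both, mutant 3 was in the wild-type range and mutant 2 was above it. At chr8:15519772-15520126 mutant 1 had 25120 and the other 5 libraries were listed at 0. Among unassigned single-exon transcripts, 19 reached an abundance of 1000 in mutant 1, against 3 to 7 in the other vehicle libraries.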
